A study of Homo sapiens with 10 samples.

Results

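The miR-130, miR-301 and miR-454 family is a group of human microRNAs (miRNAs) with a common seed, followed here across 5 siRNA treatments of HEK-293, an established line of human embryonic kidney origin. Its members were chosen by name: 6 human mature probe sets of the array, out of 1080 that have a name in the authors' tables. They are miR-130a-3p, miR-130b-3p, miR-130b-5p, miR-301a-3p, miR-301b-3p and miR-454-3p. The series asks which miRNAs change in level when 1 of 2 long noncoding RNAs, studied as possible miRNA sponges, is silenced. Cells were transfected at 10 nM with LINC00324 siRNA 1, LINC00324 siRNA 2, LOC400043 siRNA 1, LOC400043 siRNA 2 or a scramble siRNA as control, with 2 arrays per group and 10 arrays in all. All groups are the same line with the same transfection reagent, and the labels give no untransfected cells and no time of harvest. Replicates are labelled biological, but separate cultures are not named, and the p-values below rest on the spread between arrays alone, which may be technical. Neither long RNA is read by these arrays, and the extent of silencing was not analysed here.

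A miRNA pairs with target messenger RNAs mainly through its seed, bases 2 to 8 from its 5′ end, so miRNAs with one seed share many predicted targets. The family is known for repression of PPARG, a regulator of fat cell formation. miR-130a is also known from endothelial cells, where it represses the antiangiogenic factors GAX and HOXA5, and miR-301a has been described as a repressor of NKRF, an inhibitor of NF-kB. In the RefSeq annotation, MIR301B and MIR130B lie 245 bases apart on chromosome 22. MIR301A and MIR454 lie on chromosome 17 within the span of SKA2, a gene of the spindle and kinetochore, while MIR130A lies on chromosome 11.

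The mature sequences are shown first because the seed defines the family and because probes of near-identical members may not separate them. Each is written 5′ to 3′ with bases 2 to 8 in capitals, and was the same in the authors' tables and in RefSeq (GRCh38.p14); for miR-130a-3p the match was to the RefSeq hairpin.
miR-130a-3p (hsa-miR-130a_st, chr11:57641252-57641273, plus strand): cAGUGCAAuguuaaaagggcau
miR-130b-3p (hsa-miR-130b_st, chr22:21653354-21653375, plus strand): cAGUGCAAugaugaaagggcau
miR-301a-3p (hsa-miR-301a_st, chr17:59151149-59151171, minus strand): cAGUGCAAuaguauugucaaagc
miR-301b-3p (hsa-miR-301b_st, chr22:21653025-21653047, plus strand): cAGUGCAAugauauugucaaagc
miR-454-3p (hsa-miR-454_st, chr17:59137787-59137809, minus strand): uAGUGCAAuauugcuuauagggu
miR-130b-5p (hsa-miR-130b-star_st, chr22:21653316-21653336, plus strand): aCUCUUUCccuguugcacuac
The 5 members of the 3p arm have the seed AGUGCAA, and miR-130b-5p, the other arm of the miR-130b hairpin, has another one. From miR-130a-3p to miR-130b-3p the mature sequence differs by U11A and A13G, counted from 1 at the 5′ end. From miR-301a-3p to miR-301b-3p it differs by A10G and G11A. Their GC content ran from 34.8% in miR-454-3p to 47.6% in miR-130b-5p.

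Values are the authors' normalized log2 signals, and changes are log2 differences of silenced minus scramble cells. The LOC400043 arrays belong to a normalization run of their own, and each was set against the scramble values of that run. The detection floor was 1.31, the 95th percentile of mean signals over 2392 plant probe sets of the array, and 322 of the 1080 human probe sets (29.8%) had a mean above it and were tested with limma. Replicate arrays correlated over these with r between 0.973 and 0.988, and their number limits the precision. All 4 miRNAs listed as abundant in HEK-293 cells were above the floor (means from 7.80 to 12.7), while of 15 listed for other cell types 2 were, miR-126-3p (4.07) and miR-451a (1.80). The median detected signal of the first run was lowest on the LINC00324 siRNA 2 arrays (3.45 and 3.77), against 4.17 and 4.11 with LINC00324 siRNA 1 and 4.40 and 4.18 in scramble cells.

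No member of the family passed the test in any comparison (0 of 4 tested members in each of 8). miR-130b-3p and miR-301a-3p lay far above the floor, with means over the 10 arrays of 8.06 and 5.06. miR-454-3p (mean 1.42) and miR-130a-3p (mean 1.33) lay just above it, and with the LOC400043 arrays left as deposited their means were 1.30 and 1.21, under the floor. miR-301b-3p (mean 1.06) and miR-130b-5p (mean 0.90) lay below it and were not tested. The floor was applied to the mean over the same arrays that are compared, so members near it could pass through their highest group. For miR-454-3p that group was the scramble cells, and for miR-130a-3p the cells with LINC00324 siRNA 1. The changes, percentiles and overlap counts of these members therefore depend in part on that filter. In the same fit of the 322 detected probe sets, 9.32% passed after LINC00324 silencing and 1.55% after LOC400043 silencing, so 0 of 4 is close to the background share.

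**Figure D1:**
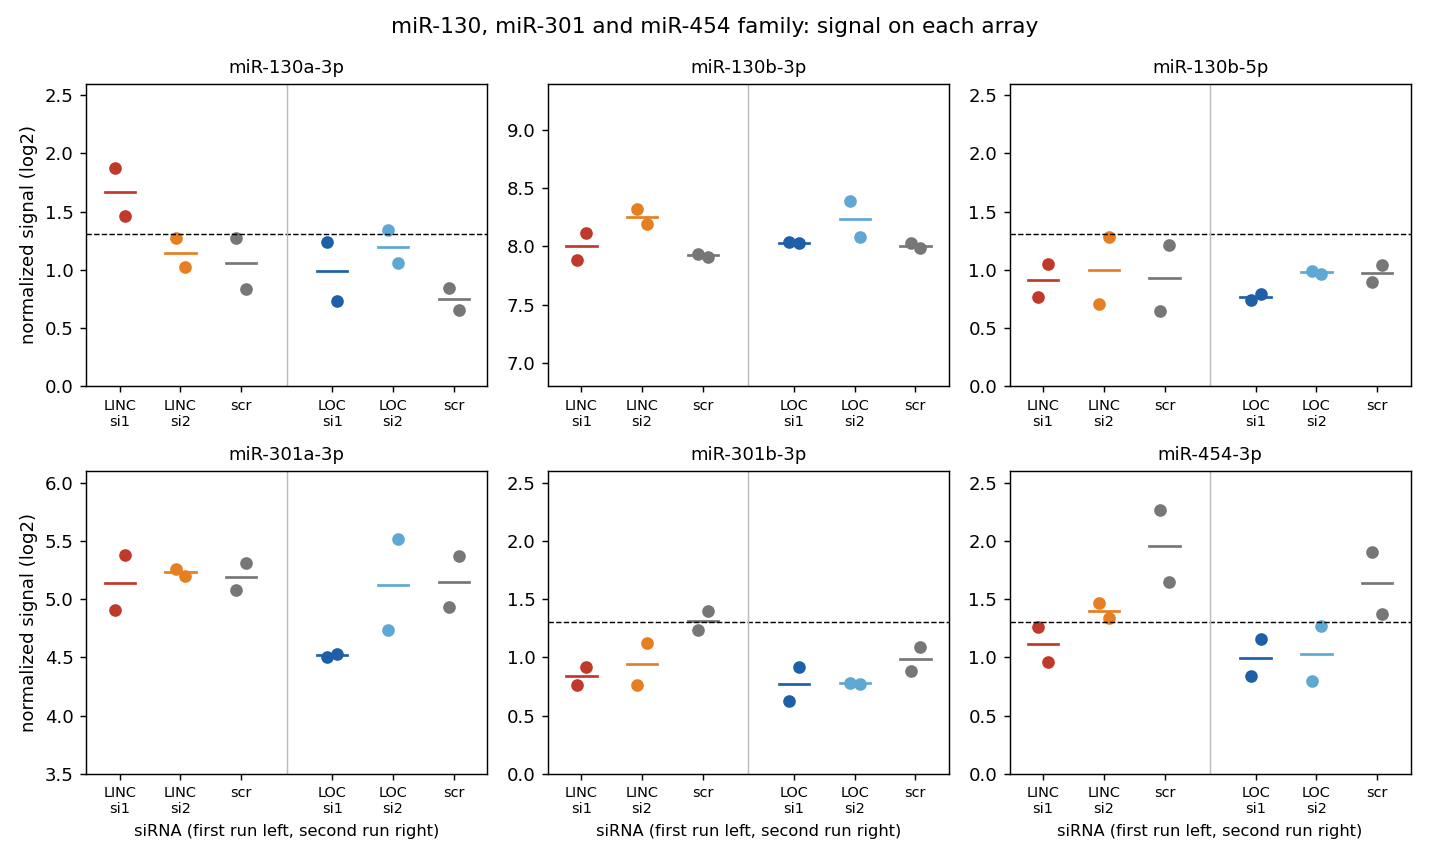
Normalized log2 signal of the 6 family members on each array (points), with group means (bars), for LINC00324 siRNA 1 and 2 and scramble in the first normalization run and LOC400043 siRNA 1 and 2 and scramble in the second. The dashed line is the detection floor of 1.31; panels have different vertical ranges of 2.6 log2 units each, and only miR-130b-3p and miR-301a-3p lie above the floor on every array.

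miR-130b-3p, known as a repressor of the tumour suppressor TP53INP1, differed from scramble by 0.33 or less in every comparison, and no difference passed the test. Its signal was 7.88 and 8.12 with LINC00324 siRNA 1, 8.32 and 8.19 with siRNA 2, and 7.94 and 7.91 in scramble cells. The siRNA 2 arrays both lay above both scramble arrays, and the siRNA 1 arrays lay on either side of them. The change after LINC00324 silencing was 0.20 (SE 0.14, 95% confidence interval −0.14 to 0.54, adjusted p = 0.494), with 0.08 for siRNA 1 and 0.33 for siRNA 2 (adjusted p = 0.860 and 0.292). siRNA 2 was above siRNA 1 by 0.25 (interval −0.14 to 0.65, adjusted p = 0.537). With each array centred on its median detected signal, the siRNA 2 change was 1.01 and passed (adjusted p = 0.0439), and over its alternatives the adjusted p ran from 0.0439 to 0.610. With this centring 28 of the 322 probe sets passed for siRNA 2. That centring moved the median change of all 322 probe sets for siRNA 2 to 0.47, against −0.21 without it, so the value of 1.01 includes that shift.

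In the second run miR-130b-3p had a signal of 8.04 and 8.03 with LOC400043 siRNA 1, 8.39 and 8.08 with siRNA 2, and 8.03 and 7.99 in scramble cells. All 4 silenced arrays lay above both scramble arrays, though only by a small margin for siRNA 1. The change was 0.13 (SE 0.14, interval −0.21 to 0.47, adjusted p = 0.644), with 0.03 for siRNA 1 and 0.23 for siRNA 2. siRNA 2 was above siRNA 1 by 0.20 (interval −0.19 to 0.60, adjusted p = 0.642).

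The other arm, miR-130b-5p, gave 0.77 and 1.05 with LINC00324 siRNA 1, 0.70 and 1.28 with siRNA 2, and 0.64 and 1.22 in scramble cells. It gave 0.74 and 0.79 with LOC400043 siRNA 1, 0.99 and 0.97 with siRNA 2, and 0.90 and 1.04 in scramble cells of that run. Every one of these values lies under the floor, so the arrays give only an upper bound for this arm.

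For miR-301a-3p no change passed after LINC00324 silencing. Its signal was 4.91 and 5.38 with LINC00324 siRNA 1, 5.26 and 5.20 with siRNA 2, and 5.08 and 5.31 in scramble cells, and the groups overlapped. The change was −0.01 (SE 0.24, interval −0.59 to 0.57, adjusted p = 0.983), and siRNA 2 was above siRNA 1 by 0.09 (interval −0.58 to 0.76, adjusted p = 0.955). The sign of this change turned under other scalings, to 0.41 with median centring, 0.11 with quantile normalization and 0.08 with the GC trend removed.

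After LOC400043 silencing miR-301a-3p read lower with siRNA 1 than with siRNA 2, without passing the test of that difference. The signal was 4.50 and 4.53 with siRNA 1, 4.73 and 5.51 with siRNA 2, and 4.94 and 5.37 in scramble cells. Both siRNA 1 arrays lay below both scramble arrays, while 1 siRNA 2 array lay below them and 1 above. The siRNA 1 change was −0.64 (SE 0.28, interval −1.31 to 0.03, adjusted p = 0.235) and the siRNA 2 change −0.03 (SE 0.28, adjusted p = 0.970). Median centring gave −0.39 for siRNA 1 (adjusted p = 0.580), and removal of the GC trend gave −0.16 (adjusted p = 0.802). Over all 322, 5.9% passed for siRNA 1 and 1.55% for siRNA 2. siRNA 2 was above siRNA 1 by 0.61 (SE 0.28, interval −0.06 to 1.28, adjusted p = 0.387), and 1.55% of the 322 passed in that comparison. Replicate 2 of siRNA 2 carried most of it, as without that array the difference was 0.22. For both siRNAs together the change was −0.33 (SE 0.24, interval −0.91 to 0.25, adjusted p = 0.483).

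Its near copy miR-301b-3p gave 0.76 and 0.92 with LINC00324 siRNA 1, 0.76 and 1.12 with siRNA 2, and 1.24 and 1.40 in scramble cells. It gave 0.62 and 0.92 with LOC400043 siRNA 1, 0.78 and 0.77 with siRNA 2, and 0.88 and 1.09 in scramble cells of that run. Only 1 scramble array of the first run reached the floor, so no change is given for it as a level above background. The authors' deposited table lists a log2 change of −0.424 with a p-value of 0.0201 after LINC00324 silencing. In a fit of all 1080 probe sets with no floor, the adjusted p of that change was 0.293.

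miR-454-3p, encoded with miR-301a in the SKA2 gene, had the lowest values of the tested members against scramble in both comparisons, without passing either test. Its signal was 1.26 and 0.96 with LINC00324 siRNA 1, 1.47 and 1.34 with siRNA 2, and 2.26 and 1.64 in scramble cells. All 4 silenced arrays lay below both scramble arrays, and both siRNA 1 arrays were under the floor. The change was −0.70 (SE 0.24, interval −1.25 to −0.14, adjusted p = 0.127), or 1.62-fold lower. Its unadjusted p in limma was 0.0214, and 23% of the 322 probe sets had one under 0.05. Counted from the floor, the difference was 0.60 in size. The size depended on the scaling, at −0.28 with median centring (adjusted p = 0.454) and −0.37 with quantile normalization (adjusted p = 0.404). The siRNA 1 change was −0.84 (adjusted p = 0.150) and the siRNA 2 change −0.55 (adjusted p = 0.282), and siRNA 2 was above siRNA 1 by 0.29 (interval −0.35 to 0.93, adjusted p = 0.687). Over all 322, 8.39% passed for siRNA 1, 9.94% for siRNA 2 and 2.17% between them. The SD of the scramble arrays was 0.44, and without scramble replicate 1 the change was −0.39, against −1.01 without scramble replicate 2.

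With LOC400043 siRNA 1 miR-454-3p had a signal of 0.84 and 1.15, with siRNA 2 0.80 and 1.27, and in scramble cells of that run 1.91 and 1.38. All 4 silenced arrays lay below both scramble arrays and below the floor. The change was −0.63 (SE 0.24, interval −1.19 to −0.07, adjusted p = 0.163), and the difference was 0.34 in size counted from the floor. Of the 322, 25.2% had an unadjusted p under 0.05. It was −0.18 with the GC trend removed (adjusted p = 0.699), −0.36 with median centring, −0.38 with quantile normalization and −0.94 with the value table as deposited (adjusted p = 0.0555). siRNA 1 had −0.65 and siRNA 2 −0.61, and the difference between them was 0.04 (interval −0.61 to 0.68, adjusted p = 0.949). Without scramble replicate 1 of the first run the change was −0.32, and without its scramble replicate 2 it was −0.94. In both, the LOC400043 arrays were still brought to that run by the means of both scramble arrays. For miR-454-3p the authors' deposited table lists −0.697 with a p-value of 0.0118 after LINC00324 silencing and −0.628 with a p-value of 0.0152 after LOC400043 silencing, and neither p-value is stated to be adjusted. The LINC00324 and LOC400043 comparisons use the same 2 scramble samples, so the lower values in both are not separate observations. The median change of all 322 was −0.14 in each comparison, and miR-454-3p lay at percentile 20.8 of the changes after LINC00324 and 15.2 after LOC400043 silencing.

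miR-130a-3p gave 1.87 and 1.47 with LINC00324 siRNA 1, 1.27 and 1.02 with siRNA 2, and 1.27 and 0.83 in scramble cells. Only the siRNA 1 arrays reached the floor, and both lay above both scramble arrays. The siRNA 1 change was 0.62 (SE 0.27, interval −0.01 to 1.25, adjusted p = 0.287), and the difference was 0.36 counted from the floor. For siRNA 2 it was 0.09 (adjusted p = 0.861), and siRNA 2 was below siRNA 1 by 0.52 (−0.52, SE 0.27, interval −1.15 to 0.11, adjusted p = 0.398). For both siRNAs the change was 0.36 (SE 0.23, adjusted p = 0.443). In the second run the signal was 1.24 and 0.73 with LOC400043 siRNA 1, 1.34 and 1.06 with siRNA 2, and 0.84 and 0.65 in scramble cells, with 1 of the 6 arrays above the floor. The change was 0.34 (SE 0.23, adjusted p = 0.445), a difference mostly within the background range, with 0.24 for siRNA 1 and 0.45 for siRNA 2 (adjusted p = 0.652 and 0.469). siRNA 2 was above siRNA 1 by 0.21 (interval −0.42 to 0.84, adjusted p = 0.755).

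**Figure D2:**
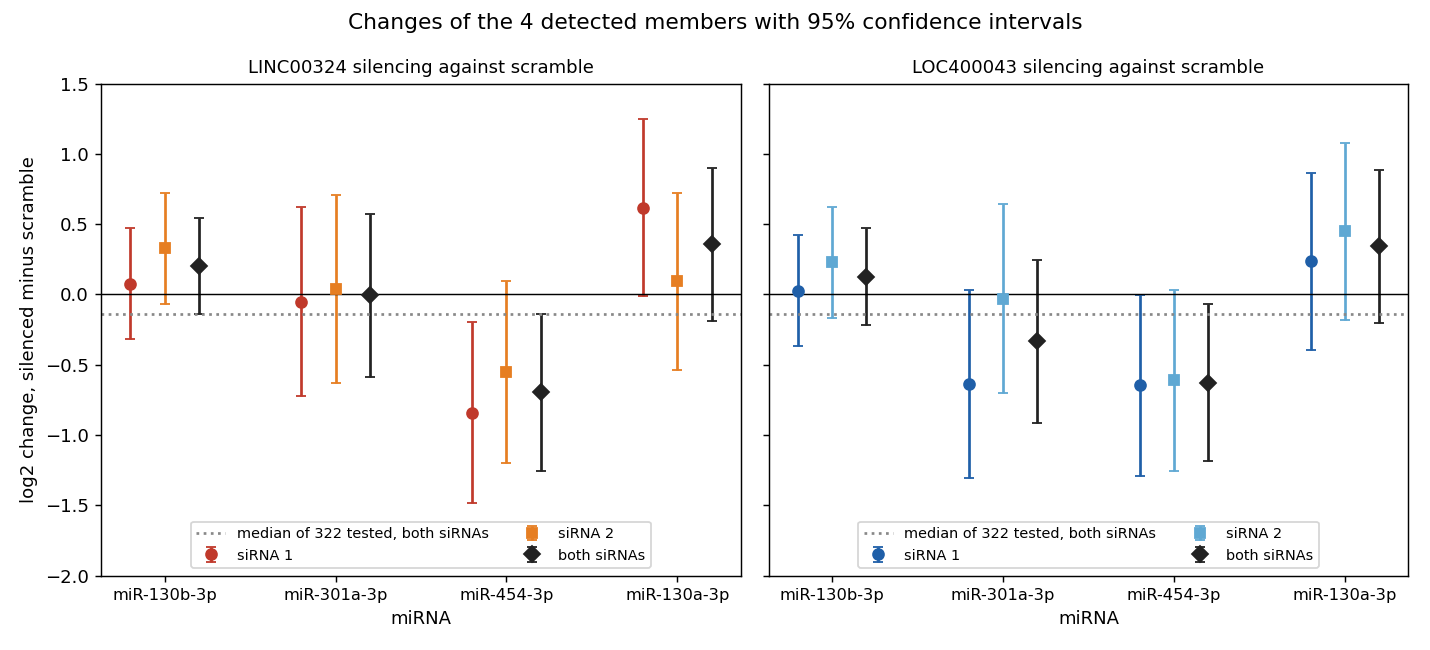
Log2 change of the 4 tested members, silenced minus scramble, for each siRNA and for both together, with 95% confidence intervals from limma. The dotted line is the median change of the 322 tested probe sets (−0.14 for each target); the interval of miR-454-3p lies below 0 for both siRNAs together in both panels, and no adjusted p is under 0.05.

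Members with no overlap between arrays are counted beside the share of all probe sets, which was large in every comparison. Silenced and scramble arrays did not overlap for 1 of the 4 members after LINC00324 silencing (25.8% of the 322) and for 2 after LOC400043 silencing (33.2%). For single siRNAs against scramble, the counts were 2 with LINC00324 siRNA 1 (49.7% of the 322), 2 with LINC00324 siRNA 2 (56.2%), 3 with LOC400043 siRNA 1 (58.1%) and 3 with LOC400043 siRNA 2 (51.2%). Between siRNA 2 and siRNA 1 they were 3 for LINC00324 (46%) and 2 for LOC400043 (42.9%). The 4 members include miR-130a-3p and miR-454-3p, whose place above the floor depended in part on the arrays compared. An unadjusted p under 0.05 was found for miR-454-3p only, with both siRNAs of each target, with LINC00324 siRNA 1 (17.4% of the 322) and with LOC400043 siRNA 1 (23.6%). No member had one with LINC00324 siRNA 2 (26.1%), with LOC400043 siRNA 2 (16.8%), or between the siRNAs of LINC00324 (14.9%) or of LOC400043 (14%).

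By direction, 2 of the 4 tested members were higher and 2 lower after LINC00324 silencing, with a median change of 0.10, against −0.14 over all 322, of which 36.3% were higher. After LOC400043 silencing 2 were higher and 2 lower, with a median of −0.10, against −0.14 over all 322, of which 37.3% were higher. The members' GC content is under 70%, and the 270 tested miRNAs in that class had a median change of −0.09 after LINC00324 and −0.19 after LOC400043 silencing. Those of 70% GC or more had −0.70 and 0.39. Over the 10 arrays the tested members did not move together: Pearson's r between pairs of them ran from −0.43, for miR-130a-3p and miR-454-3p, to 0.20, for miR-301a-3p and miR-454-3p, which share a host gene.

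The array also carries 87 probe sets from 20 other species that are named miR-130, miR-301, miR-454 or miR-721. Their sequences were not used here, so which human miRNA each of them reads was not tested. All were on the same arrays, so they are no replicates of a condition and show only how far namesakes differ. After LINC00324 silencing, 11 of 13 miR-130b probe sets above the floor were higher than in scramble cells, with a median of 0.11 and an SD between probe sets of 0.19. The 6 for miR-454 lay near the floor, with mean signals over the arrays compared from 1.36 to 1.81. Of these, 5 were lower, with a median of −0.51 and a range from −1.22 to 0.25. The human miR-454 probe set lies within that range, and its value of −0.70 is below their median. It was set against the same scramble arrays, so their lower values are not a separate observation. Of 7 for miR-301a, 5 were higher, with a median of 0.30 and a range from −0.37 to 0.35, while the human one was at −0.01. Of 7 for miR-130a, 5 were higher, with a median of 0.25 and a range from −0.66 to 0.96. The floor used the mean over the same silenced and scramble arrays, so probe sets near it could pass through either side alone. For miR-130a and miR-454 the counts above the floor therefore depend in part on that filter. With those under the floor included, 14 of 18 for miR-130a were higher, with a median of 0.09. For miR-454, 7 of 8 were then lower, with a median of −0.51. Over all 2832 miRNA probe sets of other species above the floor, the median change was −0.06, with 40.7% higher and 59.3% lower.

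**Figure D3:**
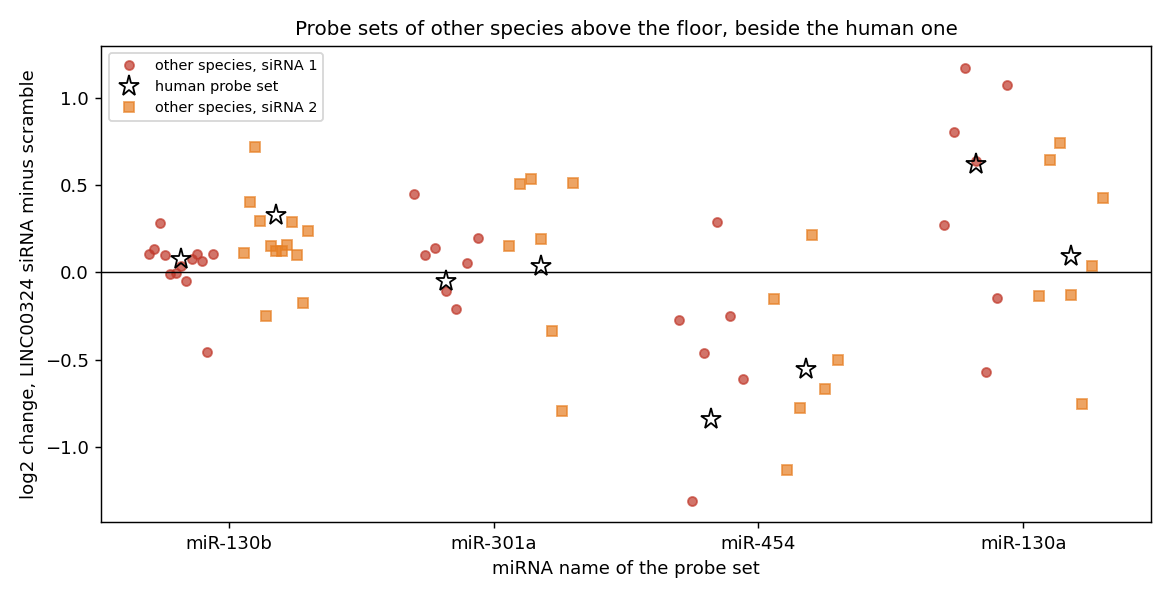
Log2 change of LINC00324 siRNA 1 (circles) and siRNA 2 (squares) minus scramble for probe sets of other species above the detection floor, by the miRNA in their name, with the human probe set as a star. For both siRNAs together the miR-130b probe sets have a median of 0.11 and those of miR-454 one of −0.51, while those of miR-130a have the largest SD of the 4 names (0.57). The floor used the mean over the arrays compared, and the miR-454 and miR-130a probe sets lie near it.

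The LOC400043 arrays have no scramble values for these probe sets in their run, so only the siRNAs were set against each other. For miR-301a, LOC400043 siRNA 2 was above siRNA 1 in 5 of 7 probe sets of other species, with a median of 0.14 and a range from −0.19 to 1.35, against 0.61 for the human one. Replicate 2 of siRNA 2 was above replicate 1 in 6 of the 7, against 23 of all 43 namesakes above the floor and 3 of 13 for miR-130b. The share of this over all probe sets was not computed. For miR-130b, siRNA 2 was above siRNA 1 in 12 of 13, with a median of 0.19, against 0.20 for the human one. Over all 2832 the median was 0.04 and 54.8% were higher.

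Besides the family's 5 members, 1 human probe set of the array has the same seed, that of miR-4295, and its mean of 0.66 lies below the floor. The partner arms miR-130a-5p (0.78) and miR-454-5p (0.75) were also below it, as were all 8 probe sets for the human family hairpins, with means from 0.74 to 1.21. Families whose seeds overlap AGUGCAA at an offset were above the floor. These are miR-19a-3p and miR-19b-3p of the miR-17-92 cluster, with the seed GUGCAAA, and miR-148a-3p, miR-148b-3p and miR-152-3p, with the seed CAGUGCA, and 2 of their sequences show the offset.
miR-19a-3p: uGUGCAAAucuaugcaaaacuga
miR-148a-3p: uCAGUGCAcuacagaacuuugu
None of these 5 passed after LINC00324 silencing, where their changes ran from −0.72 to 0.14, or after LOC400043 silencing, where they ran from −1.26 to −0.26. After LOC400043 silencing the count depended on the setting. It was 2 under the stricter floor, where miR-148b-3p (4.20) and miR-152-3p (1.52) lay below it and were not tested. It was 1 each under robust moderation with a trended variance and in the second run alone. The stricter floor left 143 probe sets to test, and the shares of all probe sets passing in these settings are not given here. These counts are therefore no result about the neighbouring seeds. With LOC400043 siRNA 1 alone miR-19a-3p fell by 1.15 (SE 0.26, adjusted p = 0.0494 in limma), and this call was lost under 11 of the 16 alternatives, among them without any 1 of the 4 arrays compared, as without scramble replicate 1 (adjusted p = 0.236). Its change was −0.62 with the GC trend removed (adjusted p = 0.291), while under no detection filter and under the replicate block it was −1.15 with adjusted p of 0.0689 and 0.0605.

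For each tested member, the 2 detected miRNAs with the most similar profile over the 10 arrays were found by Pearson's r, as a description. For miR-130b-3p these were miR-3065-5p (0.82) and miR-92a-1-5p (0.81), and for miR-301a-3p miR-30a-5p (0.89) and miR-188-5p (0.77). For miR-454-3p they were miR-1973 (0.80) and miR-491-5p (0.78), and for miR-130a-3p miR-125a-5p (0.74) and miR-3128 (0.72). All points share the arrays and the scramble samples, and each r is the highest or next highest among all detected miRNAs outside the family.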

How the data were processed

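Total RNA was hybridised to Affymetrix miRNA 2.0 arrays, 1 per sample, and samples were grouped by the siRNA in their labels. As deposited, the signals are the authors' normalized log2 values, 1 for each probe set. Human mature miRNAs also have the authors' log2 changes and p-values, per the file headers. Of tools, the submitters' processing notes give limma, without its version; how background was corrected and signals normalized is not given in the sources consulted. The human tables come from 2 normalization runs. LOC400043 arrays were shifted onto the first run, probe set by probe set, by the scramble mean in the second run minus that in the first (median 0.07, SD 0.25), a step the written design did not foresee. In the LOC400043 table, 4 sample columns match no label and were not used. Per-array values in the text are those of each array's own run.

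The detection floor used plant probe sets of 11 species codes. Where the lower side of a comparison had arrays under it, the difference was also counted from the floor, with those signals set to it. That is a difference of array means and no lower bound of the change. limma 3.58.1 in R 4.3.3 fitted 1 mean per group over all 10 arrays with eBayes and Benjamini-Hochberg adjustment over the 322 detected probe sets at 0.05, with 5 residual degrees of freedom. Each silencing effect is the mean of both siRNA groups minus scramble. The procedure was run on simulated data with independent noise as a check of the code. Its outcome is not used here for the power to detect changes of the members' size. Alternatives changed the floor, scaling, samples fitted, variance moderation, replicate block and run step, and left out each array. Where a scramble array was left out for LOC400043, it was that of the first run, and the shift still used both scramble arrays. Members, lists and named miRNAs were chosen with earlier results of these data known. The miRNAs named are the 6 members, those with the same or a neighbouring seed, partner arms, hairpins, namesakes of other species, and the 2 most alike each detected member.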

Additional observations from a re-analysis of the deposited data

How the results depend on the processing

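No member passed the test in any of the 8 comparisons, and 1 alternative changed that: with arrays centred on the median, 1 member passed with LINC00324 siRNA 2 against scramble, miR-130b-3p (1.01, adjusted p = 0.0439 in limma). In that setting 28 of the 322 probe sets passed. Of 488 recomputed changes of members, 14 turned sign under other settings and 16 on leaving out an array, and no other crossed the threshold. Median centring gave 0.41 for miR-301a-3p after LINC00324 silencing, 0.10 with LINC00324 siRNA 1 and 0.26 with LOC400043 siRNA 2. It gave 0.13 for miR-454-3p with LINC00324 siRNA 2, and 0.0058 for miR-130a-3p between the LINC00324 siRNAs. Quantile normalization gave miR-301a-3p 0.11, 0.020 and 0.0074 in the same 3 comparisons, and miR-454-3p −0.013 between the LOC400043 siRNAs. With the GC trend removed, miR-301a-3p had 0.078 after LINC00324 silencing, 0.067 after LOC400043 silencing and 0.29 with LOC400043 siRNA 2, and miR-454-3p had −0.14 between the LOC400043 siRNAs. With the value table as deposited, miR-130a-3p had −0.067 with LOC400043 siRNA 1. The cause of these turns was not tested.

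Leaving out 1 array gave, for miR-301a-3p, −0.13 to 0.11 after LINC00324 silencing, −0.29 to 0.19 with LINC00324 siRNA 1, −0.079 to 0.15 with LINC00324 siRNA 2, −0.15 to 0.32 between them, and −0.42 to 0.36 with LOC400043 siRNA 2. miR-130b-3p with LINC00324 siRNA 1 had −0.043 to 0.19. miR-130a-3p had −0.13 to 0.31 with LINC00324 siRNA 2, −0.017 to 0.49 with LOC400043 siRNA 1 and −0.044 to 0.47 between the LOC400043 siRNAs, where miR-454-3p had −0.20 to 0.27. The stricter floor (4.50) left out miR-130a-3p and miR-454-3p. A floor from all plant probe sets (1.34), chosen after seeing the data, left out miR-130a-3p. Over the detected probe sets the replicate numbers did not pair the arrays. Between groups, the differences of replicate 1 minus 2 correlated at −0.14 to 0.16, over 0.1 in 1 of 10 pairs. For miR-130a-3p, though, replicate 1 was above replicate 2 in every group. The block moved its limma adjusted p with LINC00324 siRNA 1 from 0.287 to 0.0783. With the replicate block 0 members passed in each comparison. Signals at or under the floor limit what miR-130a-3p, miR-130b-5p, miR-301b-3p and miR-454-3p can show. For miR-130a-3p and miR-454-3p, passing the floor also depended in part on the arrays compared.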
